A study of Mus musculus with 9 samples.

Results

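The genes described here are 10 components of the interstitial extracellular matrix of the mouse: the fibrillar collagen chains Col1a1, Col1a2, Col3a1 and Col5a2, the collagen VI chain Col6a1, the crosslinking enzyme Lox, the glycoproteins Fn1 and Tnc, the proteoglycan Dcn and the protease inhibitor Timp3. They were chosen by name, with earlier results of these data known. Every array probe that the authors' gene tables assign to a listed symbol was read. That gave 19 of 25697 probes, for 9 of the 10 genes, on the beadchip used for the Wdr5 knockdown, and 31 of 46643 probes, for 10 of 10 genes, on the larger beadchip used for the Oct4 knockdown. By symbol this was 9 of 18097 and 10 of 34341 names. Fn1 had no probe under that symbol on the Wdr5 beadchip and was not analysed there.

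The samples were 9 one-colour Illumina beadchip arrays of RNA from mouse embryonic stem (ES) cells. Wdr5 is a subunit of the complexes that methylate a lysine of histone H3, and Oct4 (gene symbol Pou5f1) is a transcription factor that ES cells need to remain pluripotent. The Wdr5 comparison set 3 arrays of cells with a short hairpin RNA (shRNA) against Wdr5, labelled Wdr5R4 -dox and titled as a rescue clone without doxycycline, against 2 arrays of a luciferase control labelled LucR +dox, both in the Aniv15 line that carries the reverse tetracycline transactivator. The knockdown arm is named as 1 rescue clone, so clone, shRNA and doxycycline differ together between its groups and cannot be told apart. The Oct4 comparison set 2 arrays of an Oct4 shRNA against 2 arrays of a GFP shRNA. These cells were CCE or E14T, without a statement of the line used for each sample. All 4 groups were grown on primary mouse embryonic fibroblast feeders with LIF, and the growth text lists doxycycline at 1 ug/ml for every sample, which goes against the label of the Wdr5 knockdown. No genotype, strain or age is given, and nothing says that replicates were separate cultures, so p-values measure the spread between these arrays, which may be technical.

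Fibrillar collagens are secreted as trimers of alpha chains, trimmed outside the cell and assembled into the fibrils that give connective tissue its strength. Type I collagen combines the Col1a1 and Col1a2 chains, type III is built from Col3a1, type V (with Col5a2) helps to nucleate fibrils, and type VI (with Col6a1) forms beaded filaments around cells. Lox oxidises lysines of collagen and elastin so that they crosslink, Fn1 and Tnc link or loosen the contact of cells with the matrix, Dcn coats collagen fibrils, and Timp3 binds the matrix and inhibits metalloproteinases. Fibroblasts are the classical source of this matrix, and the ES cells here were grown on fibroblasts.

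Promoters are shown for 4 of the genes with a measurable signal, because members that rose together invite a comparison of their upstream sequence. RefSeq promoter windows (build GRCm38.p6) were read for 5 of the 10 genes. Member windows on a chromosome that was set aside were not counted, so a member without a sequence here may still have such a window. Each line below gives the 250 bases before an annotated start, 5′ to 3′ on the strand of the gene. Capitals mark matches, on either strand, to 5 short motifs searched by their letters: TGANTCA (AP-1), GGAATG (TEAD), CAGAC (Smad), GGGCGG (Sp1) and CCAAT (NF-Y). No overlapping matches occurred in these windows. The windows lie at chr1:45311288-45311537 on the plus strand for Col3a1, chr10:76726045-76726294 on the minus strand for Col6a1, chr4:64046937-64047186 on the minus strand for Tnc, which has a further annotated start, and chr10:86300162-86300411 on the plus strand for Timp3.
Col3a1: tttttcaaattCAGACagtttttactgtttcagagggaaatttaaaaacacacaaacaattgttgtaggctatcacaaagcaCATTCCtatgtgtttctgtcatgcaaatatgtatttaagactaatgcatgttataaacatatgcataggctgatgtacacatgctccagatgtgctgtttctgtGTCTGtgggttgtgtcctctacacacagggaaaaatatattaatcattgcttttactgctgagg
Col6a1: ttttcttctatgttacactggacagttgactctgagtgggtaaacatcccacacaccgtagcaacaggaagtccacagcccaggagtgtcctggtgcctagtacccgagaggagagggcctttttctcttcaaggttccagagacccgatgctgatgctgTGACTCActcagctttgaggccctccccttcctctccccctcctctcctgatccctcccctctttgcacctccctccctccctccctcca
Tnc: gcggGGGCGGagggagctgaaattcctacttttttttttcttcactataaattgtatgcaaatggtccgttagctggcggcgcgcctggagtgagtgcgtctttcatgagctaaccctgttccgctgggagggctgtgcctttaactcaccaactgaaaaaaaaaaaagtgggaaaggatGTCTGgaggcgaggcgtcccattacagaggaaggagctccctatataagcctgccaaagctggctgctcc
Timp3: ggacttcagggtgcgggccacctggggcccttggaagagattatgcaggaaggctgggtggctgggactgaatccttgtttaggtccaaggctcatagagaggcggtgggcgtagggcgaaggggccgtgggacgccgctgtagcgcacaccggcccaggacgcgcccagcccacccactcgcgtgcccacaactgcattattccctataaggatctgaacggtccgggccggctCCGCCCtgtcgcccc

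The 4 sequences shared no motif common to all of them. Col3a1 held CAGAC at 239 and 64 bases before the start and GGAATG at 168, Col6a1 held TGANTCA at 90, Tnc held GGGCGG at 246 and CAGAC at 70, and Timp3 held GGGCGG at 15. Of 32851 mouse promoter windows of the same 250 bases, 6.75% held TGANTCA, 12.6% GGAATG, 42.2% CAGAC, 32.7% GGGCGG and 33.8% CCAAT. A match describes letters only and is no evidence of a bound factor.

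The arrays differed in brightness between sets. Mean deposited intensities were 375 to 429 for the Wdr5 knockdown against 448 and 518 for luciferase. In the other set they were 110 and 111 for the Oct4 knockdown against 344 and 278 for GFP. Median intensities went the other way there, at 0.5 and 1.9 for the Oct4 knockdown against -2 and -13 for GFP. Between 12156 and 13104 probes per array had a detection score above 0.95 in the Wdr5 set, and between 9020 and 11804 in the Oct4 set. Normalized values correlated at 0.994 to 0.996 within groups and 0.916 to 0.921 between groups of the Wdr5 set, and at 0.977 to 0.988 and 0.859 to 0.882 in the Oct4 set. The targeted genes went with the labels: the Wdr5 probe read 463.7, 459.1 and 427.3 in the Wdr5 knockdown against 987.9 and 1096.9 in the luciferase control (log2 fold change -0.96 ± 0.08, limma adjusted p = 0.00014), and the brighter Pou5f1 probe read 297.1 and 305.4 in the Oct4 knockdown against 4609.3 and 4136.5 in the GFP control (-2.28 ± 0.15, limma adjusted p = 0.000669).

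In the Wdr5 knockdown, each of the 7 matrix genes that could be tested rose relative to the luciferase control, from 3.42-fold for Col6a1 to at least 29.4-fold for Lox. The fibrillar chains Col1a1 and Col3a1, the crosslinker Lox, the glycoprotein Tnc, the proteoglycan Dcn and the inhibitor Timp3 all rose by more than 6-fold, while the other chain of type I collagen, Col1a2, passed detection on 1 array and could not be tested. In the Oct4 knockdown only 4 of the 10 genes could be tested, and all 4, Timp3, Fn1, Col5a2 and Tnc, were higher after quantile normalization. Timp3 was at least 17.2-fold higher on that scale, or at least 11.4-fold with the arrays scaled to a common median of all probes, Fn1 was 1.67-fold higher with a call that ended under that scaling, and the bounds of Col5a2 and Tnc (1.24-fold and 1.17-fold) lay close to 1 and were lost under it. Throughout, a probe was tested if its detection score passed 0.95 on at least 2 arrays of its set, a gene was read by its tested probe of highest mean signal, fold changes come from background-corrected, quantile-normalized log2 signals, and the errors of log2 fold changes are standard errors. Every "at least" fold is a bound on that normalized scale and not on the deposited intensities, where the Oct4 knockdown arrays had lower means than the GFP arrays.

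The count of rises needs its background. The members were chosen with earlier results of these data known, so their counts are no independent test. At a limma adjusted p under 0.05, 68.7% of all 13529 tested probes of the Wdr5 set were called, 35.0% higher and 33.7% lower, and 7 of 7 member genes, with 11 of 11 tested probes, were called higher. Of 11324 tested probes of the Oct4 set 42.5% were called, 23.3% higher and 19.2% lower, and 4 of 4 member genes, with 5 of 5 tested probes, were called higher. Scaling the Oct4 arrays to a common median of all probes, in place of quantile normalization, moved the median log2 fold change of all tested probes from -0.04 to -0.54, and 696 probes were then called higher and 3474 lower, against 2643 and 2174. Under that scaling 3 of the 4 members were called, and Fn1 was not. Of the genes tested, Lox and Dcn (2 of 7) and, among the Oct4 arrays, Col5a2, Tnc and Timp3 (3 of 4) were detected in the knockdown arrays only and so passed the filter only through the group where they were high. Their direction was fixed by the filter, so that Fn1 was the only Oct4 set member whose direction was open to the test. Col3a1 was detected on 1 of the 2 luciferase arrays, too few to pass the filter without the knockdown arrays. By probe, 4 of the 11 tested in the Wdr5 set and 4 of the 5 in the Oct4 set were not detected on any control array. The median log2 fold change of the tested members was 3.21 in the Wdr5 set, or 3.15 with genes not detected in the control at their lower bound, beside 0.04 over all tested probes. For the Oct4 set these medians were 1.61, 0.53 and -0.04. In these bulk RNA samples, more cells of a type and more RNA per cell cannot be told apart.

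**Figure D1:**
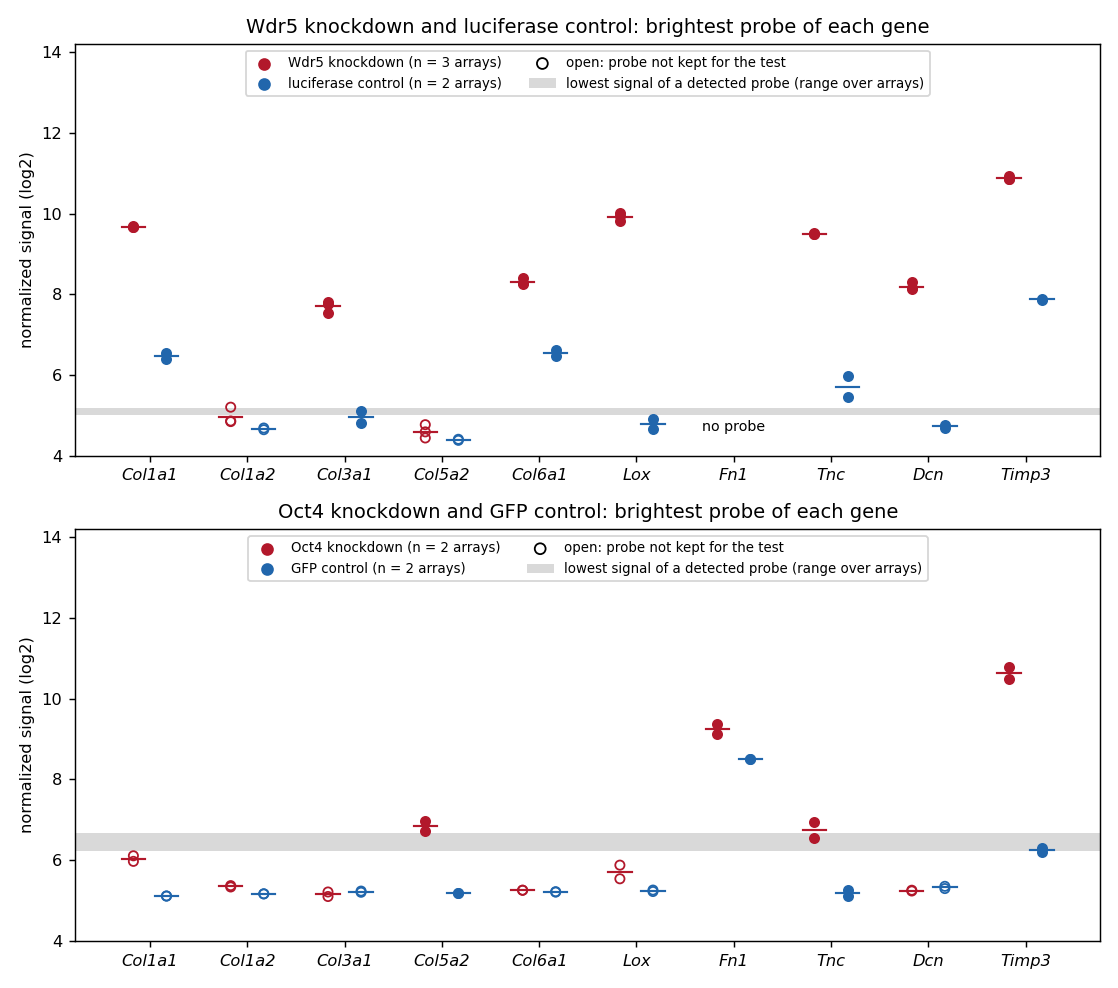
Normalized log2 signal of the brightest probe of each gene (y axis) on every array, with knockdown arrays in red left of control arrays in blue, group means as bars, open points for probes not kept for the test and a grey band for the lowest signal of a detected probe. In the upper panel the 3 Wdr5 knockdown points lie above both luciferase points for all 7 tested genes, as in 40.5% of all tested probes of that set. For Lox and Dcn, not detected on either luciferase array, the direction was fixed by the filter. In the lower panel only Fn1 is above the grey band in both groups.

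Col1a1, the more abundant chain of type I collagen, had deposited intensities of 809.5, 751.9 and 694.6 on the Wdr5 knockdown arrays and 86.3 and 93.2 on the luciferase arrays. The groups did not overlap, and all 5 arrays detected the probe. Its normalized log2 signal was 9.68 ± 0.02 (SD, n = 3) in the Wdr5 knockdown and 6.47 ± 0.10 (SD, n = 2) in the luciferase control, a rise of 9.23-fold (3.21 ± 0.08 log2, limma adjusted p = 1.63e-05), the change of rank 19 among 13529 probes ordered by rise. In 40.5% of all tested probes of this set, every knockdown array stood above every control array.

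Col1a2, whose product pairs with that of Col1a1, read 9.8, 17.6 and 9.0 in the Wdr5 knockdown against 5.6 and 5.1 in the luciferase control. It passed the detection threshold on 1 knockdown array alone and was not tested. On the Oct4 beadchip its probe read 0.9 and 3.5 in the Oct4 knockdown against -21.6 and -34.9 in the GFP control, with no detection on any array. Such readings near 0 are background and carry no fold change.

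Col3a1, the chain of type III collagen, read 164.4, 174.7 and 174.0 in the Wdr5 knockdown against 19.6 and 12.3 in the luciferase control. Only 1 of the 2 luciferase arrays detected it, so the control level sits at the edge of background. The rise was 6.70-fold (2.75 ± 0.13 log2, limma adjusted p = 2.8e-05), and a further Col3a1 probe was not detected on any array of the set.

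Col5a2, a chain of type V collagen, gave -5.8, 1.4 and 6.6 in the Wdr5 knockdown against -10.3 and -9.1 in the luciferase control and was detected on none of those arrays. In the Oct4 set 1 of its 4 probes read 48.6 and 54.7 in the Oct4 knockdown against -17.7 and -31.8 in the GFP control. It was detected on both knockdown arrays and neither control array. The change was at least 1.24-fold (limma adjusted p = 0.00149), with a bound this close to 1 because both knockdown signals were near the lowest detected level. With scaling to a common median of all probes no bound above 1 was left, and the other 3 probes were not detected.

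Col6a1, a chain of collagen VI, was the tested member with the smallest rise in the Wdr5 set. Its brighter probe read 283.6, 261.4 and 273.0 in the Wdr5 knockdown against 91.3 and 98.3 in the luciferase control, a rise of 3.42-fold (1.77 ± 0.09 log2, limma adjusted p = 2.97e-05). A separate probe read 143.4, 154.7 and 121.4 in the Wdr5 knockdown against 56.9 and 49.4 in the luciferase control, a rise of 3.00-fold (1.58 ± 0.14 log2, limma adjusted p = 0.000173). These 2 probes measured the gene in both groups, and their groups did not overlap. The remaining Col6a1 probe of the set was not detected on any array (difference -0.10 log2). The 3 Col6a1 probes of the Oct4 set were at background on all 4 arrays.

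Lox, which starts the crosslinking of collagen and elastin, read 977.1, 943.5 and 764.6 in the Wdr5 knockdown against 4.6 and 16.4 in the luciferase control. All knockdown arrays detected it and neither control array did. The rise was at least 29.4-fold (limma adjusted p = 1.63e-05), and its fitted log2 change of 5.13 ± 0.11 was the largest of the 13529 probes tested, though a control level below background leaves that size undefined above the bound. On the Oct4 and GFP arrays Lox was close to background: it read 20.7 and 8.7 in the Oct4 knockdown against -14.7 and -22.5 in the GFP control and was detected on none.

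Tnc, a glycoprotein of remodelling and embryonic matrix, had 6 probes on the Wdr5 beadchip, and its brightest read 718.7, 661.7 and 609.5 in the Wdr5 knockdown against 31.7 and 63.7 in the luciferase control. The normalized log2 signal was 9.50 ± 0.01 (SD, n = 3) in the Wdr5 knockdown and 5.71 ± 0.36 (SD, n = 2) in the luciferase control, so the control arrays were the more variable, yet every knockdown array lay above both. The rise was 13.8-fold (3.79 ± 0.15 log2, limma adjusted p = 2.2e-05). A second bright probe, at 570.9, 464.9 and 488.3 in the Wdr5 knockdown against 30.7 and 56.8 in the luciferase control, gave 11.3-fold (limma adjusted p = 2.11e-05).

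The other Tnc probes were dim. One read 21.1, 29.9 and 21.5 in the Wdr5 knockdown against -2.9 and 2.2 in the luciferase control, a change of at least 1.36-fold (limma adjusted p = 0.00135), and the remaining 3 were not detected on any array. On the Oct4 beadchip 1 of 6 Tnc probes passed the filter, with 42.6 and 54.3 in the Oct4 knockdown against -29.4 and -23.2 in the GFP control. That change was at least 1.17-fold (limma adjusted p = 0.00263), detected in the knockdown alone, and it too had no bound above 1 with scaling to a common median of all probes. The probes of this gene gave different folds, so each fold is quoted with its probe.

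Fn1, the fibronectin that cells bind through integrins, was the only member with a clear signal in both Oct4 set groups. Its brightest probe read 330.6 and 275.2 in the Oct4 knockdown against 598.3 and 454.1 in the GFP control, so the deposited intensities were lower in the knockdown. After normalization, with knockdown arrays of lower mean intensity, the log2 signal was 9.24 ± 0.18 in the Oct4 knockdown and 8.50 ± 0.0033 in the GFP control (SD, n = 2 each), a rise of 1.67-fold (0.74 ± 0.16 log2, limma adjusted p = 0.0151). That call ended when the arrays were scaled to a common median of all probes (0.12 log2, limma adjusted p = 0.806), and without Oct4 knockdown array 1 (0.62, limma adjusted p = 0.174) or array 2 (0.87, limma adjusted p = 0.0671).

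A dimmer Fn1 probe read 98.0 and 97.2 in the Oct4 knockdown against 76.6 and 33.3 in the GFP control, and passed detection in the knockdown alone. The deposited means differed 1.78-fold, and the change was at least 2.18-fold after quantile normalization (limma adjusted p = 0.00208) and at least 1.57-fold with scaling to a common median of all probes. The remaining 2 Fn1 probes were not detected on any array and differed by -0.57 and -0.25 log2.

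Dcn, the small proteoglycan decorin that binds fibrillar collagen, read 253.9, 234.2 and 251.7 in the Wdr5 knockdown against 8.8 and 6.9 in the luciferase control. Every knockdown array detected it and no control array did, for a rise of at least 8.87-fold (limma adjusted p = 1.63e-05). Its other probe was not detected, and none of the 5 Dcn probes of the Oct4 set was detected on any array.

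Timp3, the matrix-bound inhibitor of metalloproteinases, was well detected in both knockdowns. In the Wdr5 set its main probe read 1877.3, 1739.4 and 1708.1 in the Wdr5 knockdown against 231.2 and 278.6 in the luciferase control, a rise of 8.00-fold (3.00 ± 0.07 log2, limma adjusted p = 1.63e-05) with all 5 arrays detected. In the Oct4 set it read 888.3 and 704.5 in the Oct4 knockdown against 93.6 and 92.8 in the GFP control, whose detection scores of 0.938 and 0.891 fell under the threshold of 0.95. The deposited means of the groups, 796.4 in the Oct4 knockdown and 93.2 in the GFP control, differed 8.55-fold. With knockdown arrays of lower mean intensity, the change was at least 17.2-fold after quantile normalization (limma adjusted p = 0.000311), at least 11.4-fold with scaling to a common median of all probes and at least 16.3-fold with scaling to the median of tested probes. In 37.1% of all tested probes of the Oct4 set both knockdown arrays stood above both control arrays. A dim Timp3 probe of the Wdr5 set gave 41.9, 21.6 and 25.2 in the Wdr5 knockdown against 2.1 and 4.3 in the luciferase control, a change of at least 1.53-fold (limma adjusted p = 0.00241), and 2 further probes of the Oct4 set were not detected.

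**Figure D2:**
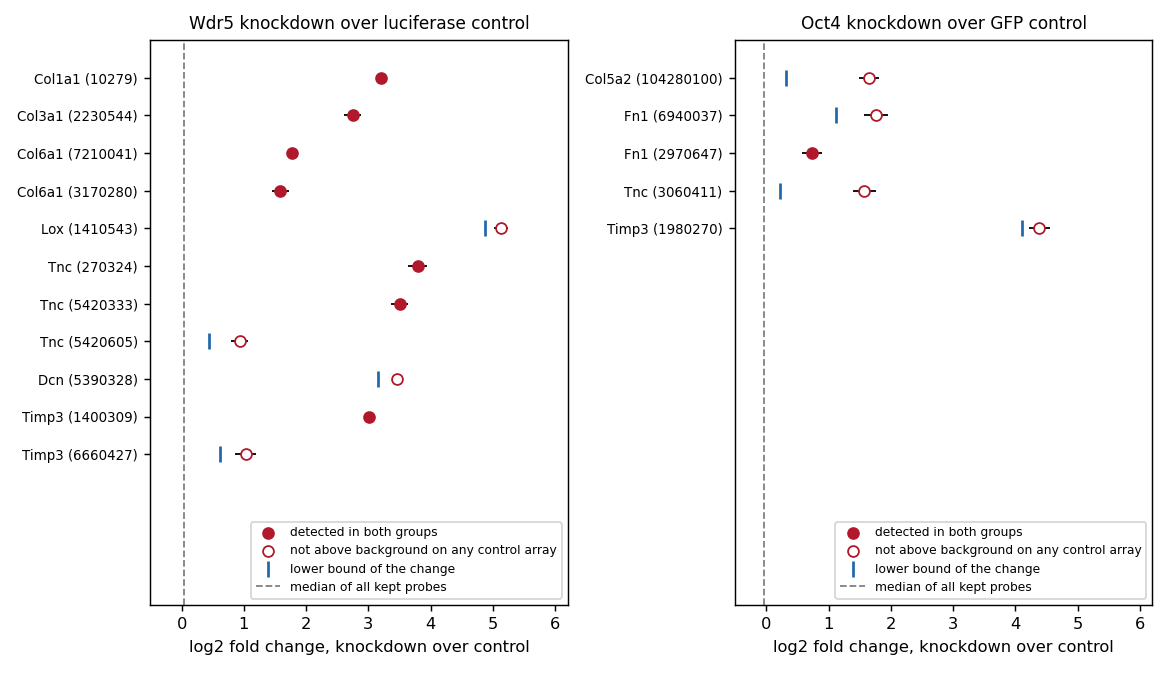
Log2 fold change of every tested member probe, knockdown over control (x axis), with standard errors as bars, filled points for probes detected in both groups, open points for probes not above background on any control array and blue ticks for their lower bound. All 11 probes of the Wdr5 set and all 5 of the Oct4 set lie right of the dashed median of all tested probes, and the bounds of Col5a2 (at least 1.24-fold) and Tnc (at least 1.17-fold) in the Oct4 set lie close to it on this quantile-normalized scale.

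Tnc and Timp3 were tested in both sets, Col1a1, Col3a1, Col6a1, Lox and Dcn in the Wdr5 set alone, Col5a2 and Fn1 in the Oct4 set alone, and Col1a2 in neither. The sets used different beadchips and cell lines, shared no array and were normalized separately, so no difference between them was tested, and a gene tested in 1 set alone is not shown to behave differently in the other. Of the 50 member probes, the 8 untested ones of the Wdr5 set differed between groups by -0.10 to 0.30 log2 and the 26 untested ones of the Oct4 set by -0.57 to 0.93. The 0.93 belonged to Col1a1, which read 28.0 and 21.5 in the Oct4 knockdown, with detection scores of 0.918 and 0.916, against -29.0 and -41.2 in the GFP control. With no filter on detection it was called higher (limma adjusted p = 0.0107).

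**Figure D3:**
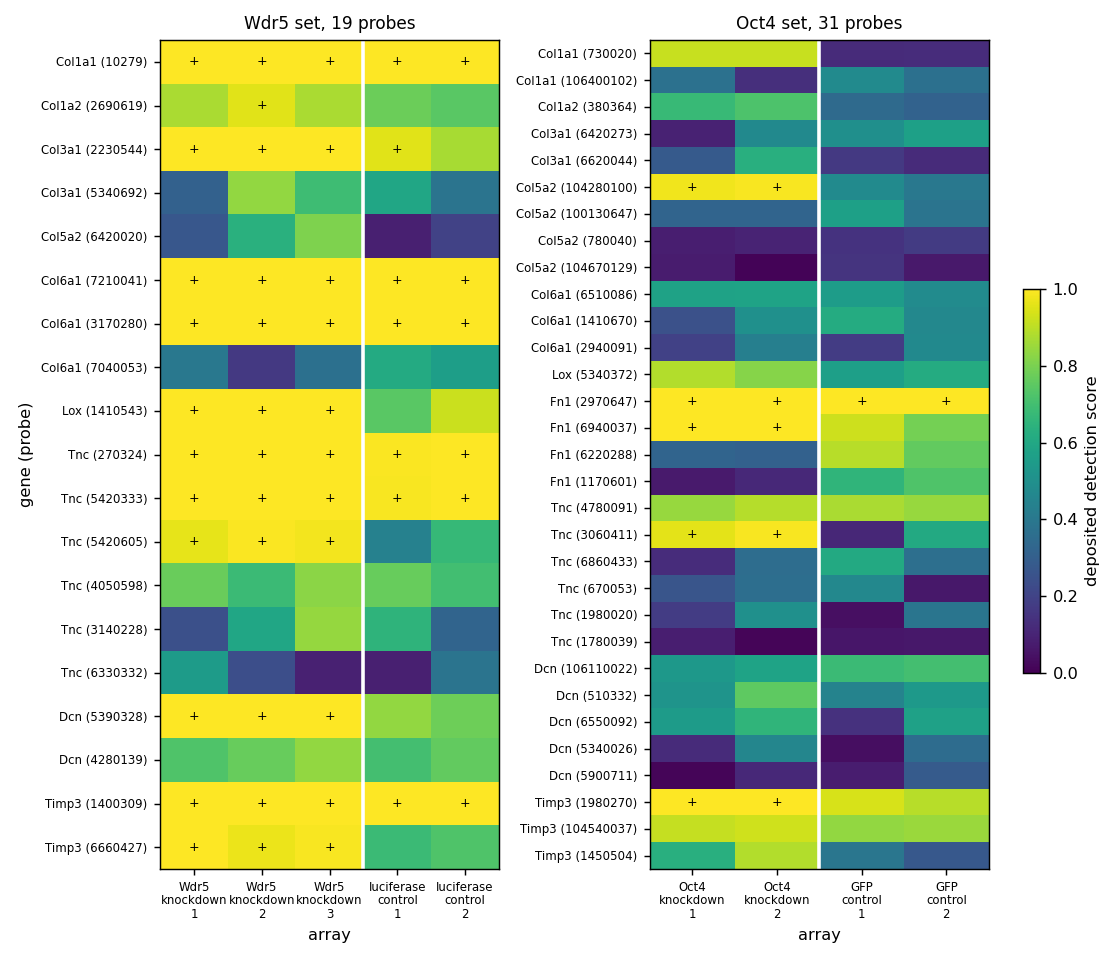
Deposited detection score (colour scale from 0 to 1) of all 50 member probes (rows) on every array (columns), with knockdown arrays left of control arrays and a plus where the score passes 0.95. In the Wdr5 set 11 of 19 probes pass on at least 2 arrays, and in the Oct4 set 5 of 31, 4 of which pass on the knockdown arrays alone.

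In the authors' deposited table, the log2 fold changes of the tested probes had the same sign and were smaller. Lox was given 2.11, Timp3 2.13, Tnc 1.64, Col1a1 1.60, Dcn 1.00, Col3a1 0.74 and Col6a1 0.72 by their main probes in the authors' deposited table for the Wdr5 set. For the Oct4 set the authors' deposited table gave Timp3 1.89, Fn1 0.34, Col5a2 0.30 and Tnc 0.29. The deposited log2 values behind these had array minima of 7.42 to 7.47 and array medians of 7.62 to 7.64 in the Oct4 set.

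Other matrix genes were read in 6 lists, also chosen with earlier results of these data known. The background was 35.0% of all probes of the Wdr5 set called higher, or 3861 of 10119 with 1 probe per gene. All 4 measurable chains among 12 other fibrillar and associated collagens rose (median 1.51 log2), led by Col2a1, the cartilage collagen (2.47 ± 0.11), Col12a1, which binds fibril surfaces (1.95 ± 0.11), and Col5a1, the partner chain of Col5a2 (1.06 ± 0.08). Among 15 measurable genes of collagen synthesis and crosslinking, 13 rose and 1 fell (median 0.91, or 0.73 with the gene below background in the control at its bound). Pcolce2 was counted as a rise at 0.99, but its other tested probe gave -0.91 (limma adjusted p = 0.000156). Bmp1, the protease that trims procollagen, rose by 1.90 ± 0.08 by its brightest probe (its other probes gave 1.35, 1.33 and 0.26). The lysyl oxidase relative Loxl1 rose by 1.66 ± 0.07 and the lysyl hydroxylase Plod2 by 1.37 ± 0.12, whereas Crtap, a subunit of the prolyl hydroxylation complex, fell by 0.57.

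Of 19 measurable further proteoglycans and glycoproteins, 11 rose and 3 fell in the Wdr5 knockdown (median 0.60). Sparc was counted as a rise at 0.30, but its other tested probe gave -0.88 (limma adjusted p = 0.000315). Prelp, a leucine-rich relative of decorin, was at least 7.22-fold higher, Ltbp1, which tethers latent TGF-beta, rose by 2.62 ± 0.11 by its brightest probe (its other probes gave -0.14 and 0.60), and Fbn1, the microfibril protein fibrillin, rose by 2.34 ± 0.07. The 3 that fell, named after their values were seen, were Fbln1 (-0.84 ± 0.07), Spp1 (-0.71 ± 0.09) and Vcan, which was not detected on any knockdown array. Of 10 proteases and inhibitors 6 rose and 1 fell (median 0.91, or 0.74 with bounds): the urokinase Plau rose by 2.53 ± 0.09, the membrane collagenase Mmp14 by 1.85 ± 0.07 and Timp2 by 1.73 ± 0.09, and Reck, also an inhibitor, fell by 0.48.

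TGF-beta is the classical inducer of collagen genes. Of 10 measurable ligands, receptors and Smads, 7 rose and none fell in the Wdr5 knockdown after quantile normalization (median 0.57), with the ligand Tgfb3 at least 2.66-fold higher, the signal carrier Smad3 up by 1.13 ± 0.10 and the ligand Tgfb2 up by 0.88 ± 0.09. Of 11 receptors for collagen and fibronectin, 7 rose and 1 fell (median 0.58). Sdc1 was counted as a rise at 0.58, but its other tested probe gave -0.69 (limma adjusted p = 0.0243). Itgb1 and Ddr1 were counted as rises at 1.57 and 1.48, but their other tested probes gave -0.08 and -0.12 (limma adjusted p = 0.547 and 0.635). The collagen-binding integrin Itga11 rose by 2.66 ± 0.10 (its other probe gave 0.65), the hyaluronan receptor Cd44 by 2.43 ± 0.09 and the fibronectin receptor chain Itga5 by 2.00 ± 0.12, while the syndecan Sdc4 fell by 0.64. By the brightest tested probe of its gene, each named change except that of Sparc had a limma adjusted p of at most 0.0081. Not detected on any luciferase array were 1 synthesis gene, 2 proteoglycans or glycoproteins, 1 protease or inhibitor, 1 TGF-beta gene and 2 receptors. They passed the filter only through the knockdown, so their direction was not open to the test.

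In the Oct4 knockdown, read against 23.3% of all probes called higher, none of the 3 measurable other collagens was called, with Col5a1 at 0.45 ± 0.27, Col14a1 at 0.22 ± 0.21 and Col6a2 at -0.23 ± 0.24 log2. Of 15 genes of collagen synthesis and crosslinking, 12 rose and 2 fell (median 1.14). Plod3 was counted as a rise at 1.44, but its other tested probe gave -0.58 (limma adjusted p = 0.181). By its brightest probe Bmp1 was at least 6.92-fold higher, while its other probes gave 1.45 and 0.35 log2, the latter not called (limma adjusted p = 0.277). The transglutaminase Tgm2 was at least 3.11-fold higher, and the collagen chaperone Serpinh1 rose by 2.47 ± 0.18. Pcolce2 (-1.31 ± 0.27) and Pcolce (-0.50 ± 0.14), both enhancers of procollagen trimming, fell.

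Of 8 further proteoglycans and glycoproteins, 3 rose and 1 fell in the Oct4 knockdown (median 0.51, or 0.07 with genes below background in the control at their bound). Fbn2, counted as a rise, was not detected on any GFP array and had no bound above 1. The one that fell was Spp1, osteopontin (-1.71 ± 0.18), Ltbp1 was at least 1.27-fold higher and Tgfbi rose by 1.09 ± 0.17. Of 10 proteases and inhibitors 5 rose (median 0.98, or 0.68 with bounds), with Timp2 at least 5.52-fold higher, Adam19 up by 2.39 ± 0.18 and Mmp14 up by 1.85 ± 0.15. Of 10 TGF-beta genes 9 rose (median 1.02), with Tgfb2 at least 4.59-fold and the receptor Tgfbr2 at least 6.41-fold higher and Smad3 up by 2.73 ± 0.29. Smad4 was counted as a rise at 0.62, but its other tested probe gave -0.19 (limma adjusted p = 0.326). Of 4 receptors 3 rose (median 1.49), the integrin chain Itgb1 by 2.51 ± 0.14 (its other probe gave 0.47), the collagen receptor Ddr1 by 1.77 ± 0.25 and Sdc4 by 1.21 ± 0.14. By the brightest tested probe of its gene, each change named as a rise or fall, except that of Fbn2, had a limma adjusted p of at most 0.0354. Not detected on any GFP array were 2 of the measurable synthesis genes, 3 proteoglycans or glycoproteins, 3 proteases or inhibitors and 3 TGF-beta genes. They passed the filter only through the knockdown, so their direction was not open to the test.

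The Oct4 counts were lower under 1 of 2 other scalings. With the arrays scaled to a common median of all probes, 6 synthesis genes rose and 2 fell, 1 glycoprotein rose and 1 fell, 4 proteases or inhibitors, 4 TGF-beta genes and 2 receptors rose, and the median of the other collagens turned to -0.17. The list medians there, 0.56, 0.15, 0.43, 0.47, 0.93 and -0.17, stand beside a median of -0.54 over all tested probes. With scaling to the median of tested probes the counts were close to those above: 11 synthesis genes rose and 2 fell, 3 glycoproteins rose and 1 fell, 6 proteases or inhibitors, 8 TGF-beta genes and 3 receptors rose, and the other collagens had a median of 0.35. In the Wdr5 set, scaling to all probes gave 8 TGF-beta genes higher and 1 lower, and 10 glycoproteins higher and 4 lower with a median of 0.39.

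**Figure D4:**
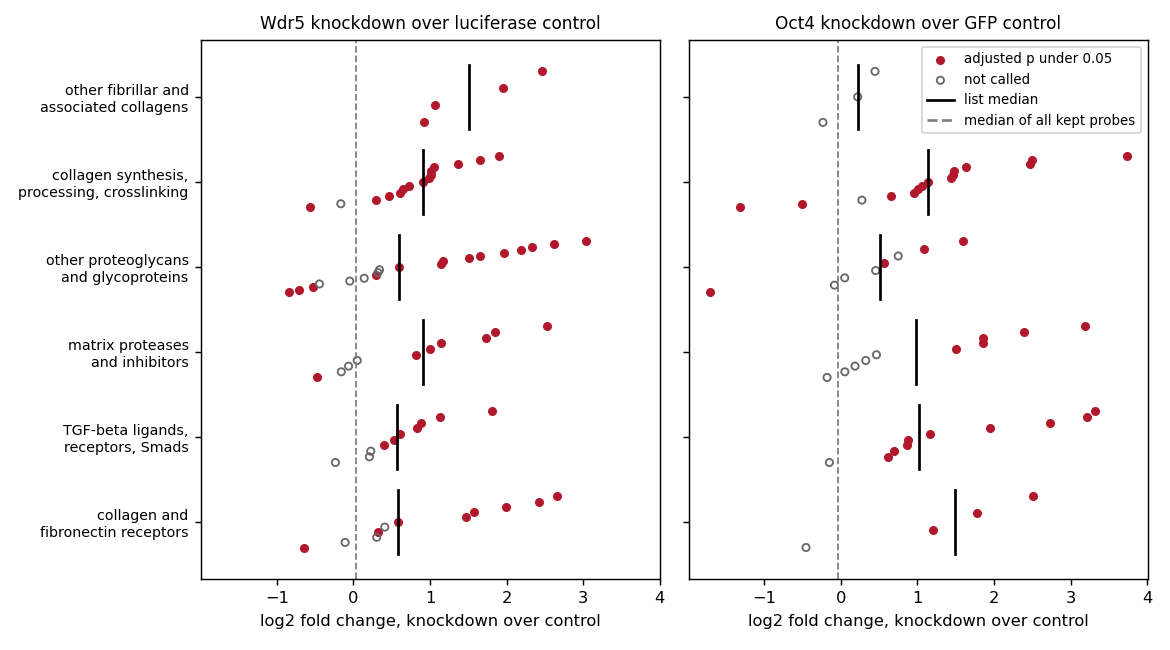
Log2 fold change, knockdown over control (x axis), of each measurable gene in 6 lists of matrix genes (rows), red where the limma adjusted p was under 0.05 and open where not, with the list median as a black bar and the median of all tested probes as a dashed line. In the Wdr5 panel all 6 list medians lie between 0.57 and 1.51, and in the Oct4 panel the other collagens have the lowest median, at 0.22.

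Feeder fibroblasts also make this matrix, so fibroblast genes outside the matrix were read beside it. In the Wdr5 set, 10 of 16 were measurable. Beside 35.0% of all tested probes called higher and 33.7% lower, 5 of the 10 rose and 2 fell (median 0.37). The rises include S100a4, which was not detected on any luciferase array. The summed background-corrected and quantile-normalized signal of the 16 genes was 2592 to 2725 in the Wdr5 knockdown against 1774 to 1825 in the luciferase control. Without Vim, the intermediate filament gene that carried most of the difference, the sum was 1218 to 1265 in the Wdr5 knockdown against 1074 to 1140 in the luciferase control. Twist1 (1.41 ± 0.09) and Vim (1.00 ± 0.07) rose, Thy1 (-0.44 ± 0.09) and Pdgfra (-0.43 ± 0.10) fell, and Ccl2, Fap, Meox1, Meox2, Prrx1 and Tbx18 were not above background on any array. Among the Oct4 and GFP arrays, 6 of 16 were measurable and 4 rose (median 1.04), beside 23.3% of all tested probes called higher. In deposited intensities the Oct4 knockdown arrays had lower means than the GFP arrays. On the normalized scale the sum was 15461 to 16411 in the Oct4 knockdown against 3201 to 3881 in the GFP control. Vim rose there by 2.50 ± 0.19 and made up most of both sums, which without it were 2711 to 2940 in the Oct4 knockdown against 1191 to 1248 in the GFP control. The markers Ccl2, Cdh11, Fap, Meox1, Meox2, Pdgfrb, S100a4, Tbx18, Thy1 and Twist2 were not above background. The part of feeder cells in the matrix changes was not tested.

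Other cell types were read in the same way. As a check of the labelled cell type, 10 of 10 stem cell markers were detected in both groups of the Wdr5 set and 8 of 9 in both groups of the Oct4 set, with Tdgf1 at background. Of the stem cell markers, 10 of 10 fell in the Wdr5 knockdown (median -1.14) and 7 of 8 in the Oct4 knockdown (median -2.18), where Klf4 differed by 0.02 ± 0.16 by its brightest probe. Other Klf4 probes of that set fell by 1.28 (limma adjusted p = 0.00785) and gave -0.34 (limma adjusted p = 0.114), so the probes disagree. Esrrb was counted as a fall there, but its other tested probe rose by 0.78 (limma adjusted p = 0.0105). Smooth muscle genes rose in 3 of 3 and 4 of 4 measurable cases (medians 2.78 and 4.62), led in the Oct4 knockdown by Acta2 at 7.59 ± 0.35 by its brightest probe (its other probes gave 5.69 and 4.81). Of these Oct4 set genes, 2 were not detected on any GFP array, and with them at their bounds the median was 3.97. Primitive and parietal endoderm genes rose in 6 of 9 cases and fell in 2 in the Wdr5 knockdown, and rose in 10 of 10 in the Oct4 knockdown. The Wdr5 rises include Thbd (at least 2.93-fold), which was not detected on any luciferase array. Those of the Oct4 knockdown include Lamb1 (at least 1.46-fold) and Thbd (at least 1.12-fold), which were not detected on any GFP array. The direction of these was fixed by the filter. Pdgfra was counted as an Oct4 rise at 1.55, but its other tested probe gave 0.02. Trophectoderm genes rose in 4 of 7 cases and fell in 2 in the Wdr5 knockdown, and rose in 5 of 6 and fell in 1 in the Oct4 knockdown. The Oct4 rises include Gata3, which was not detected on any GFP array. Of mesoderm genes, 5 of 7 rose in the Wdr5 knockdown, and the 1 measurable in the Oct4 set was not called. With the Oct4 arrays scaled to a common median of all probes, 3 fibroblast, 9 endoderm, 4 trophectoderm and 4 smooth muscle genes rose, and 7 stem cell markers fell. In the Wdr5 set that scaling left 4 fibroblast genes higher and called 1 mesoderm gene lower. The part of these shifts in the matrix changes was not tested.

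Outside the 10 genes, the closest pairs of changes to the member medians, by Euclidean distance over 6168 genes tested in both sets on 9 arrays, belonged to Ccnd2, Actc1 and Col4a2. The cyclin Ccnd2 changed by 3.32 in the Wdr5 knockdown and 2.10 in the Oct4 knockdown (distance 0.50), the cardiac actin Actc1 by 3.70 and 1.75 (0.51), and the basement membrane collagen chain Col4a2 by 2.76 and 1.94 (0.56). The adjusted limma p was at most 0.0015 for each change. This nearness is to fitted medians: the Oct4 value, 1.61, rests on Col5a2 and Tnc, whose controls were below background. With such members at their bounds (medians 3.15 and 0.53) these genes lay at distances of 1.58, 1.34 and 1.47 and ranked 98, 53 and 72.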

How the data were processed

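RNA of 9 samples in 4 groups was measured on 2 Illumina beadchips. The authors deposited probe intensity values, which per the file headers were not normalized between arrays, with a detection score for each probe, a fraction from 0 to 1. Normalized log2 values were deposited too, and a gene table per knockdown holds, per the file headers, log2 fold changes and p-values. The submitters' processing notes name limma without its role or version. The scanner software and the authors' normalization method are not given in the sources read.

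Intensities were background-corrected with neqc of limma 3.58.1 in R 4.3.3 (normal-exponential model on the detection scores, offset 16), quantile-normalized within each set and log2-transformed. A probe was tested if at least 2 arrays of its set gave it a detection score above 0.95. Quantile normalization removes changes in total messenger RNA, and the offset shrinks the folds of dim probes. Each knockdown was compared with its control by lmFit and eBayes, with no term but group, two-sided, with Benjamini-Hochberg adjustment over all tested probes and a threshold of 0.05. Where no array of a group passed 0.95, "at least" folds set the brighter mean against the higher of the lowest detected signal and the probe's own signal. The number of arrays limits the precision. Genes of the lists were named through accessions matched to RefSeq (24202 and 25596 probes) or else through the tables' symbols, and each list gene was read by its tested probe of highest mean signal.

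Named were the 10 members, both targets, per list and comparison up to 3 called genes of largest absolute change, and the 3 genes nearest the member medians. The 6 matrix lists and 6 marker lists are those described in the results. The members and lists were chosen with earlier results of these data known. The procedure was tested on simulated data. Alternatives in normalization, offset, filter, probe choice, variance model, block and left-out arrays are given at the end. For the Wdr5 set, the normalized log2 values had identifiers that could not be paired with the probes and were not used. Same-numbered arrays did not deviate together, so numbers were not treated as pairs.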

Additional observations from a re-analysis of the deposited data

How the results depend on the processing

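All 181 alternative values of single Wdr5 set member probes kept direction and call, as did 69 of 74 of the Oct4 set, and the other 5 were the Fn1 probe described above. The 7 members called in the Wdr5 set were called under every alternative run that tested them. Their median log2 fold change, 3.21, was 3.08 with arrays scaled to a common median of all probes, 3.50 without background correction, 2.80 with an offset of 50, 3.00 with no filter on detection and 3.24 with scaling to the median of tested probes, and 3.17 to 3.31 when single arrays were left out (3.18 and 3.17 without knockdown replicate 1 or 2 with the probes tested on all arrays), with 7465 to 8961 probes called against 9295. In the Oct4 set the median, 1.61, was 1.32, 2.65, 1.05, 0.60 and 1.83 under the same settings, 2.56 with a score above 0.99 on every array of a group, which left 2 members called, and 0.32 on the authors' deposited log2 values. Leaving out single Oct4 set arrays gave 971 to 5477 called probes against 4817, medians of 0.62 to 1.66 and 0 to 4 called members. Without Oct4 knockdown replicate 1 or 2 (971 and 1677 probes called) only Fn1 could be tested, because the other genes were detected on the knockdown arrays alone. With the probes tested on all arrays, an alternative chosen after seeing the data, as was scaling to tested probes, 1959 and 2401 probes and 3 members each were called, with a median of 1.84 without replicate 1. The share of calls that were higher in the Oct4 set was 54.9%, and 16.7% with scaling to a common median of all probes, where 3 members were called.

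With the replicate number as a block, 8584 probes and 7 members were called in the Wdr5 set (median 3.21) and 3962 probes and 4 members in the Oct4 set (median 1.61), and no member call changed. Deviations of same-numbered arrays correlated at -0.03 and -0.02 in the Wdr5 set. Those of the Oct4 set correlated at -0.35, and there crossing the numbers, chosen after seeing the data, gave 5751 called probes. The alternative with the authors' log2 values was not run for the Wdr5 set. Bounds under other scalings, marker sums without Vim and distances to medians with bounds were also chosen after seeing the data. Groups of 2 or 3 arrays limit every estimate, and member probes near background in the Oct4 set have only bounds.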
